A study of Solanum lycopersicum with 9 samples.

Results

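The 100 tomato genes described here are those whose signal at turning, pink and red ripe stood farthest above their signal at breaker on every array. For each gene the higher of the 2 breaker arrays was subtracted from the lowest of the 7 later arrays, and this difference on the log2 scale is called the gap. Where a gene owned more than 1 probe set, the largest gap stood for it, and the 100 genes with the largest gap were taken from 21326 genes that own a probe set with a single gene symbol. The gap ran from 3.05 down to 0.41 with a median of 0.585, against a median of -0.49 over all genes. At 1 unit the lowest later array lies 2-fold above the higher breaker array, and 14 of the 100 genes had a gap over 1. Because breaker was used to choose the genes, their differences from breaker are given as a description without a test, and tests are restricted to contrasts among the 3 later stages.

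Tomato fruit colours from breaker onwards, when the green fruit shows its earliest change of colour, through turning and pink to red ripe. During this time ethylene drives the ripening programme, chloroplasts turn into chromoplasts that store lycopene, and enzymes secreted into the cell wall loosen pectin, cellulose and hemicellulose so that the fruit softens. Genes that rise early and stay high are known among wall-degrading enzymes such as polygalacturonase, and small heat shock proteins are also known to accumulate during ripening, where they protect other proteins from aggregation.

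RNA came from wild-type fruit of the cultivar Ailsa Craig, and neither a mutant nor a treatment was included, so that the 4 groups differ in ripening stage alone as far as the labels tell. Each of the earlier 3 stages had 2 arrays and red ripe had 3, although the study's methods speak of 2 biological replicates for every stage. The plants were grown hydroponically in a greenhouse. The labels name pericarp and a PureLink kit, whereas the methods name fruit tissue, once abscission zones, and an RNeasy kit. Fruit age is not given in the labels, and p-values measure the spread between these arrays, whose number limits the precision of every value.

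Signals are log2 values on Affymetrix TomGene ST 1.1 arrays, where several probes read each transcript, and levels of different genes are not set against each other. In whole tissue, fewer cells of a type and less RNA per cell cannot be told apart. The upper part of the signal distribution differed between stages, since the 90th percentile of all probe sets was 5.09 and 5.15 on the breaker arrays, 4.17 to 4.55 on the turning and pink arrays, and 5.24 to 5.43 on those of red ripe. The mean signal of the 100 genes was 5.06 and 5.13 on the breaker arrays, 6.44 and 6.53 at turning, 6.70 and 6.78 at pink, and 6.40, 6.42 and 6.27 when red ripe. The genes were therefore higher at turning and pink while the upper range of the arrays was lower. The part of this scaling in the signals of the genes was not tested beyond renormalizing the table. All 100 genes kept a gap above 0 when the arrays were centred on their medians, quantile normalized or normalized by cyclic loess, with a smallest gap of 0.26, 0.14 and 0.18. Having been chosen for a large gap, they could stay above 0 and still lose their place. In the same settings 85, 55 and 58 of them were chosen again by the rule.

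Most of the 100 genes already had breaker signals in the upper part of their array, so that a switch from off to on is not shown for them. Both breaker signals lay above the median of their array (1.84 and 1.82) for 95 genes. They lay above its 75th percentile (2.63 and 2.61) for 92 and above its 90th percentile (5.09 and 5.15) for 49. Both lay at or under the median for 4 genes, LOC101250534, LOC101251407, LOC101248521 and LOC101259171, the last with 1.74 and 1.82 at breaker and 2.74 to 4.34 later. The arrays carry no call for detection, and a signal near the median cannot be told from background. In the plot of the lowest later array against the higher breaker array, the genes lie along a band just above the line of equal signal. Across all genes 1000 had a gap above 0 (4.69%), and 2075 had all 7 later arrays below both breaker arrays (9.73%), of which 757 were lower by at least 0.41 and the most extreme by 3.91. At the limit of 100 the genes LOC101246512, LOC101256074 and LOC101266195 lay inside with gaps of 0.42, 0.41 and 0.41, and LOC101255527, LOC101247120 and LOC101247702 lay outside with 0.40 each. The limit thus runs through closely spaced values and marks no step.

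**Figure D1:**
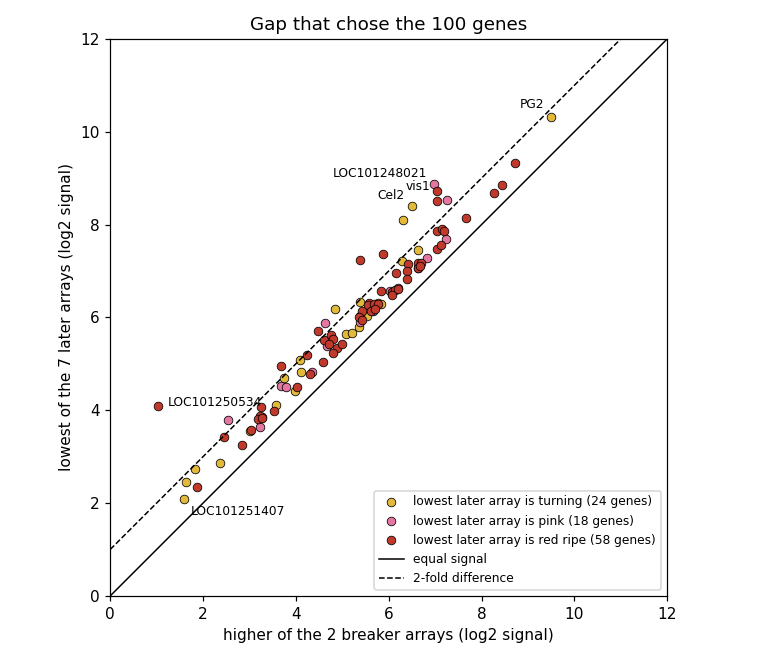
Higher of the 2 breaker arrays (horizontal axis, log2 signal) against the lowest of the 7 later arrays (vertical axis, log2 signal) for the 100 genes, coloured by the stage of that lowest array. All points lie above the solid line of equal signal because of the rule, and 14 lie above the dashed line of a 2-fold difference.

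The agreement of the 2 breaker arrays decides how firmly a gap can be read. They differed by a median of 0.18 among the 100 genes, against 0.13 over all genes, and by more than 0.5 for 10 genes. LOC101268378 differed most, with log2 signals of 3.01 and 6.31 at breaker, 8.12 and 8.09 at turning, 10.05 and 10.01 at pink, and 9.87, 9.91 and 9.80 at red ripe. Its gap of 1.78 rests on the higher breaker array, and its later arrays agree closely within each stage. Its log2 fold changes of 1.93 from turning to pink (SE 0.80, adjusted p = 0.319) and 1.76 from turning to red ripe (SE 0.73, adjusted p = 0.138) were not called in the limma fit, whose error holds the disagreement at breaker. Without breaker 1 or without breaker 2 both were called (SE 0.15 and 0.13, adjusted p = 0.00178 and 0.000127).

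Over the 100 genes the stage mean exceeded that of breaker by a median of 1.21 at turning (0.485 to 4.21), 1.39 at pink (0.45 to 6.43) and 0.956 when red ripe (0.475 to 6.04), all on the log2 scale. Medians over all probe sets were 0.115, 0.085 and 0.008. Over the probe sets that stand for all genes with a single symbol they were -0.105, -0.08 and 0.05. A mean at least 2-fold over breaker was held by 67 genes at turning, by 74 at pink, by 45 at red ripe and by 32 at all 3 stages. The highest stage mean was at turning for 26 genes, at pink for 56 and at red ripe for 18. Among the 1000 genes with a gap above 0 these shares were 42.7%, 37.9% and 19.4%. The lowest later array was a red ripe array for 58 genes, and for 42 of them red ripe 3, a turning array for 24 and a pink array for 18. After quantile normalization 36, 57 and 7 genes had their highest mean at turning, pink and red ripe, after cyclic loess 35, 59 and 6, and after median centring 23, 54 and 23, so that the number highest at red ripe depends on the scaling.

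**Figure D2:**
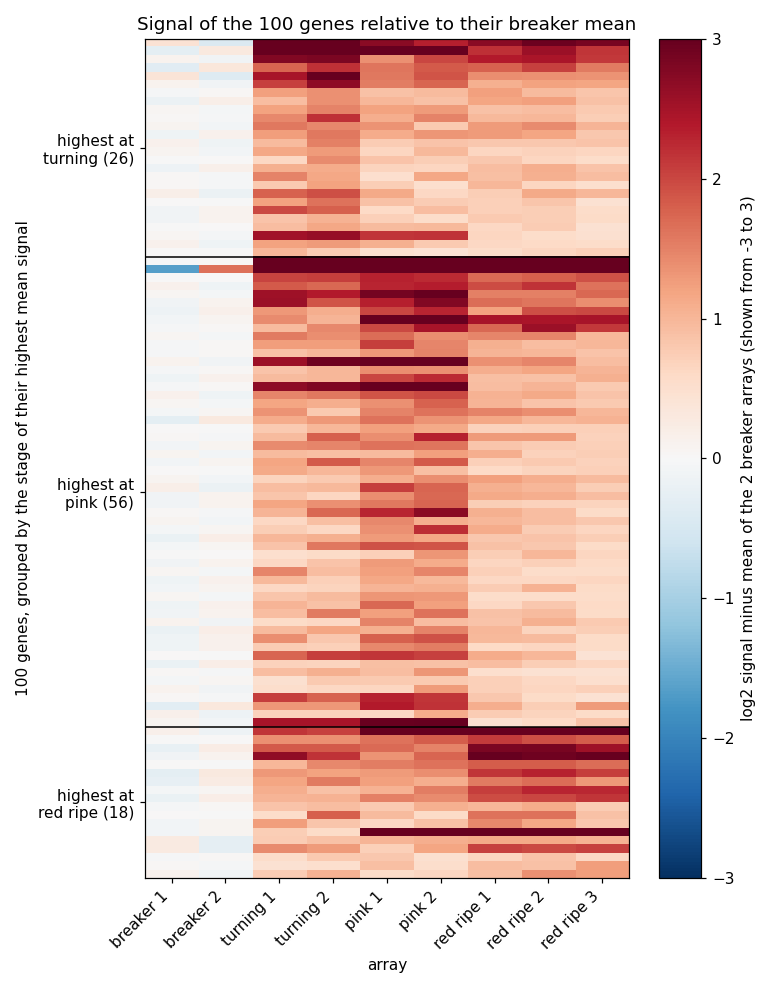
Log2 signal of the 100 genes (rows) on the 9 arrays (columns) minus the mean of the 2 breaker arrays of that gene, with colours limited to differences between -3 and 3. Rows are grouped by the stage of the highest mean, with 26 for turning, 56 for pink and 18 for red ripe, and all later columns are above 0 because of the rule. The blue and red pair of cells at breaker is LOC101268378, whose breaker arrays gave 3.01 and 6.31.

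The question which of these genes kept moving after turning was answered by contrasts among the later stages, fitted with limma over all 67795 probe sets. A call required more than a 2-fold change and a p under 0.05 after Benjamini-Hochberg adjustment. From turning to pink 6 of the 100 genes rose and 2 fell, where 2.27% and 0.875% of the probe sets with 1 symbol did (1.12% and 0.532% of all). From turning to red ripe 5 rose and 10 fell, against 22.4% and 1.54% (9.16% and 1.92% of all). From pink to red ripe 3 rose and 15 fell, against 19.2% and 1.57% (7.76% and 1.32% of all). The median log2 fold changes of the 100 genes were 0.22, -0.23 and -0.32 in these contrasts, beside 0.02, 0.12 and 0.10 for probe sets with 1 symbol and -0.02, -0.13 and -0.10 for all. In total 26 genes were called in at least 1 contrast and 74 in none. The share of all probe sets called in at least 1 contrast was not counted. From turning to red ripe alone 22.4% of probe sets with 1 symbol rose and 1.54% fell, so that the 26 are not read as a trait of the list.

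These shares are a description, because the rule shapes them. A gene that dipped below breaker at turning or pink and returned by red ripe could not enter the list, and the rule admitted genes that peaked at turning or pink provided they stayed 0.41 above breaker. After quantile normalization 39 and 41 genes fell from turning and from pink to red ripe, against 4.42% and 3.76% of probe sets with 1 symbol, and 38 and 39 after cyclic loess (4.28% and 3.57%), with all 10 and 15 falls of the deposited values among them. Of all calls on the array 82.7% from turning to red ripe and 85.5% from pink to red ripe were rises, which became 59.3% and 60.7% after quantile normalization, 60.3% and 62.7% after cyclic loess, and 90.5% and 90.4% after median centring.

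**Figure D3:**
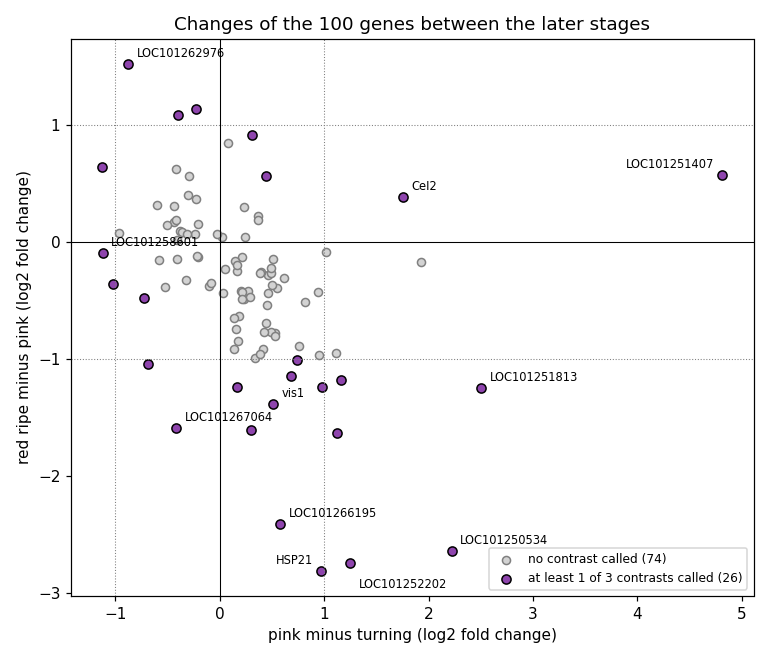
Log2 fold change from turning to pink (horizontal axis) against that from pink to red ripe (vertical axis) for the 100 genes. Purple points mark the 26 genes called in at least 1 of the 3 contrasts among later stages, grey points the other 74, and dotted lines a 2-fold change. LOC101251407 stands far to the right, and HSP21, LOC101252202, LOC101250534 and LOC101266195 lie lowest.

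Only 5 of the 100 genes carry a name as symbol (Cel2, PG2, vis1, HSP21 and ypt2), and the other 95 have a locus symbol alone. Of the latter, LOC101055525 has the synonym ARC6 in RefSeq, and supplementary annotation of the study describes LOC101250534 and LOC101251407 as 14 kDa proline-rich proteins and LOC101246122 as an unknown protein. ypt2 and LOC101055525 are described for their annotation, after their values had been seen. The roles of the other genes are not given by the sources used here.

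The pair of 14 kDa proline-rich genes started near background at breaker and was well above it at pink and red ripe, so that the size of their differences from breaker is uncertain. Proteins of this kind are small, carry a proline-rich stretch and a lipid-transfer-like domain, and are mostly secreted. LOC101250534, with the largest gap of all genes (3.05), had log2 signals of 0.98 and 1.04 at breaker, 5.29 and 5.15 at turning, 7.03 and 7.85 at pink, and 4.09, 4.83 and 5.46 at red ripe. It was thus at the lower end of the scale on both breaker arrays and peaked at pink. It rose by 2.22 from turning to pink (SE 0.41, adjusted p = 0.0296) and fell by 2.65 from pink to red ripe (SE 0.37, adjusted p = 0.00143). The rise was not called in 10 of the 17 alternative fits, with an adjusted p of up to 0.282 with array weights, while the fall was called in all 17.

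LOC101251407 lagged behind. Its log2 signals were 1.44 and 1.59 at breaker, 2.26 and 2.09 at turning, 6.79 and 7.19 at pink, and 7.71, 7.79 and 7.17 at red ripe. Its gap was only 0.50 because turning was barely above breaker, and all 5 pink and red ripe arrays lay more than 4 units above both. It rose by 4.82 from turning to pink (SE 0.23, adjusted p = 4.86e-05), the largest change of the 100 genes in this contrast, and by 5.38 from turning to red ripe (SE 0.21, adjusted p = 3.06e-06). Both rises were called in all 17 alternative fits. The difference in time is that LOC101250534 stood 4.21 above breaker at turning and LOC101251407 only 0.66. From pink to red ripe the former fell while the latter had a log2 fold change of 0.57 that was not called.

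Both proline-rich genes lie on chromosome 8 of the RefSeq assembly SLM_r2.1 with 4 annotated genes between them. All 4 were measured (LOC101249198, LOC101251115, Dea1 and LOC101250827), their signals stayed between 1.24 and 2.07 on all 9 arrays, and their gaps were below 0. LOC101250827 had 1.30 and 1.41 at breaker and 2.07 and 2.06 at turning, a difference of 0.71 beside 0.66 for LOC101251407, and 1.24 to 1.35 at pink and red ripe, where LOC101251407 was far above breaker. Probes of similar genes can capture each other's transcripts, and whether this occurred for the pair was not tested.

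Among cell wall enzymes, Cel2 and PG2 belonged to the list and were highest at red ripe. Cel2 encodes an endoglucanase that cleaves glucan chains of the wall. It had log2 signals of 6.50 and 6.21 at breaker, 8.51 and 8.41 at turning, 10.21 and 10.22 at pink, and 10.79, 10.30 and 10.70 at red ripe, with no overlap between stages. The signal rose by 1.76 from turning to pink (SE 0.19, adjusted p = 0.00353) and by 2.14 from turning to red ripe (SE 0.17, adjusted p = 6.35e-05), and the change of 0.38 from pink to red ripe was not called. The rise to pink was not called with array weights (adjusted p = 0.0956) or when only these stages were fitted (adjusted p = 0.0761). RefSeq also lists cellulase as a synonym of Cel2, and the probe set under that symbol stayed between 1.65 and 2.67 on all arrays with a gap of -0.44. Array medians were 1.78 to 2.01, and signals near them cannot be told from background. That probe set therefore neither bears out nor contradicts the course of Cel2, which rests on the other probe set alone.

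PG2 encodes the fruit polygalacturonase, which cuts the pectin backbone. It gave log2 signals of 9.09 and 9.50 at breaker, 10.32 and 10.33 at turning, 10.81 and 10.72 at pink, and 11.25, 11.29 and 11.44 at red ripe, so that every stage lay above the one before. It rose by 1.00 from turning to red ripe (SE 0.15, adjusted p = 0.00187), just past the 2-fold threshold, and it was 0.94 to 1.00 and not called with array weights, with the replicate block and without red ripe 3 or turning 1. The steps of 0.44 and 0.56 on either side of pink were not called. No other wall enzyme of the lists described below belonged to the 100 genes.

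Both small heat shock genes of the list peaked at pink and came down by red ripe. HSP21 encodes a plastid small heat shock protein with a known part in the change of chloroplasts into chromoplasts. Its log2 signals were 6.34 and 6.42 at breaker, 9.07 and 9.18 at turning, 10.23 and 9.96 at pink, and 7.30, 7.39 and 7.16 at red ripe. It fell by 2.81 from pink to red ripe (SE 0.14, adjusted p = 9.28e-06), the largest fall of the 100 genes, and by 1.84 from turning to red ripe (SE 0.14, adjusted p = 4.48e-05). At red ripe its mean stood 0.90 above breaker, against 3.71 at pink. vis1, a small heat shock gene known for its link with the viscosity of tomato juice, gave 7.05 and 6.94 at breaker, 9.53 and 9.37 at turning, 9.87 and 10.05 at pink, and 8.51, 8.50 and 8.71 at red ripe. It fell by 1.39 from pink to red ripe (SE 0.14, adjusted p = 0.000221), and its log2 fold change of -0.88 from turning to red ripe did not reach 2-fold, although it did after quantile normalization and cyclic loess (-1.01 and -1.17).

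Several other chaperone genes fell as well between the later stages and were not in the list. Of 15 listed heat shock and chaperone genes 14 were measured, 6 had a gap above 0 and 2 were among the 100. From turning to red ripe 7 of the 14 fell and none rose, with a median log2 fold change of -1.11, and from pink to red ripe 5 fell and none rose (median -0.94). Of probe sets with 1 symbol 1.54% and 1.57% fell in these contrasts. From turning to pink none was called and the median was -0.17. HSFA3, a heat shock transcription factor, had a gap of 0.35 (rank 129), with 4.68 and 4.33 at breaker, 6.78 to 7.17 at turning and pink and 5.03 to 5.29 at red ripe. er-sHSP, a small heat shock protein of the endoplasmic reticulum, stood 4.83 and 5.12 above breaker at turning and pink and 0.86 at red ripe, and a gap of 0.07 kept it out. MTSHP, a mitochondrial small heat shock gene, stood 2.92 above breaker at turning and 0.01 at red ripe, with a gap of -0.37. HSP21 and vis1 thus entered because their red ripe arrays remained above breaker by 0.74 and 1.45.

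**Figure D4:**
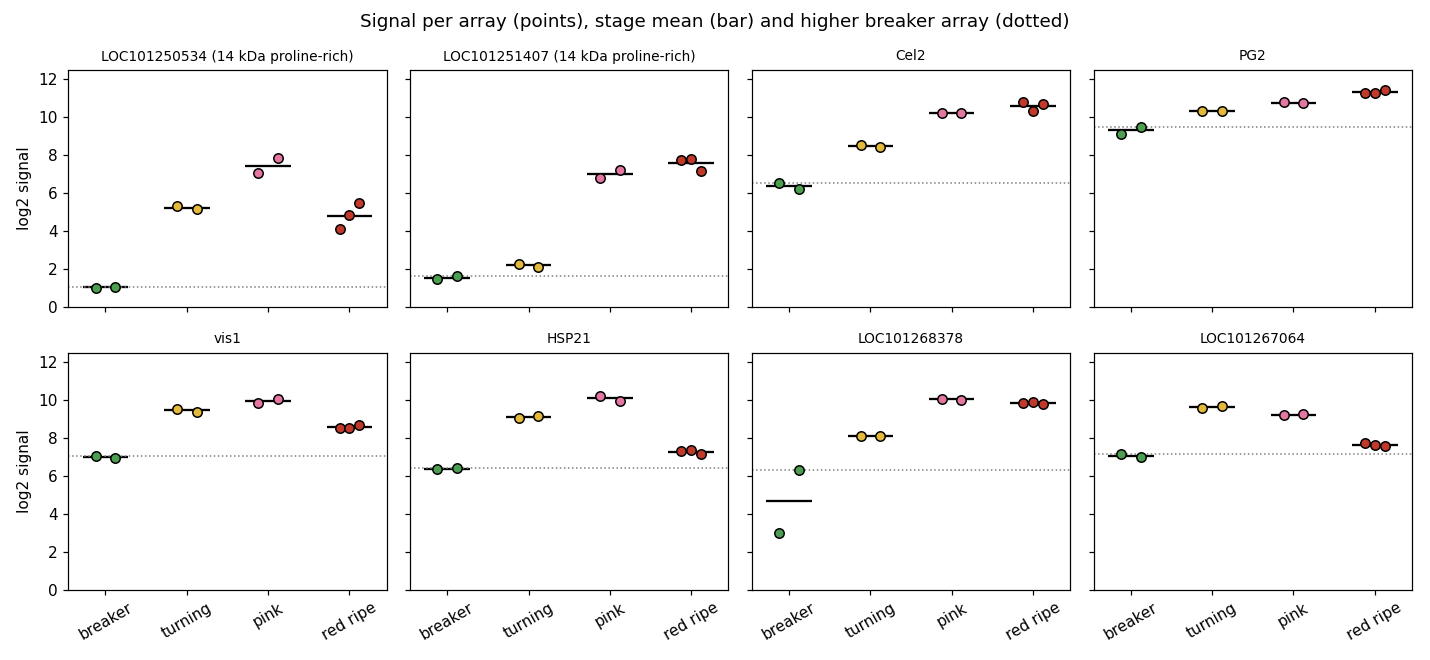
Log2 signal (vertical axis) of 8 of the 100 genes on each array (points) by stage (horizontal axis), with a bar at each stage mean and a dotted line at the higher breaker array. LOC101251407 shows its step between turning and pink, Cel2 and PG2 are highest at red ripe, and LOC101250534, vis1, HSP21 and LOC101267064 come down at red ripe without reaching breaker.

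In the deposited values a gene of vesicle traffic and a gene of plastid division were raised to a nearly level plateau. ypt2 encodes a small GTPase of the Rab type, which directs vesicles between membranes. It had 6.10 and 6.16 at breaker, 7.36 and 7.51 at turning, 7.01 and 7.09 at pink, and 7.36, 7.09 and 6.96 at red ripe. LOC101055525 (ARC6, which in Arabidopsis organizes the division ring inside plastids) had 4.35 and 4.68 at breaker, 5.44 and 5.89 at turning, 5.52 and 5.39 at pink, and 5.69, 5.75 and 5.39 at red ripe. No contrast among later stages was called for either gene, and their stage means differed by up to 0.38 and 0.21. FtsZ1, another gene of plastid division, had a gap of -0.61.

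Beside LOC101250534, Cel2, vis1 and LOC101268378, the 10 largest gaps belonged to 6 genes without an annotated role. LOC101248021, a long non-coding RNA in RefSeq, gave 6.97 and 6.09 at breaker, 9.75 and 9.56 at turning, 9.24 and 8.87 at pink, and 9.24, 9.48 and 9.38 at red ripe, a high plateau with no called change. LOC101246122 gave 4.79 and 5.39 at breaker, 9.08 and 9.17 at turning, 8.21 and 8.66 at pink, and 7.28, 7.66 and 7.24 at red ripe. It declined from its peak at turning, and fell by 1.73 from turning to red ripe (SE 0.23, adjusted p = 0.000786) and by 1.04 from pink to red ripe (SE 0.23, adjusted p = 0.014), the latter lost in 6 of the alternative fits. LOC101266452 kept a plateau, with 7.03 on both breaker arrays and 8.73 to 9.35 on the later 7. LOC101253889, with 5.87 and 5.60 at breaker and 7.37 to 8.09 afterwards, was also called in no contrast. LOC101260745, with 3.44 and 3.67 at breaker, 6.13 and 5.43 at turning, 5.89 and 6.34 at pink, and 5.24, 5.15 and 4.96 at red ripe, had log2 fold changes of -0.66 from turning and -0.998 from pink to red ripe that were not called (adjusted p = 0.08 and 0.0188, the latter just under 2-fold). Both were called after quantile normalization (-1.54 and -1.73) and cyclic loess (-1.5 and -1.7), the change from turning also without turning 2 (-1.01), and the change from pink also without pink 1 (-1.22) or red ripe 1 (-1.06). LOC101250046 had stage means that went up at each step, from 4.82 and 4.84 at breaker to 6.19 and 6.20 at turning, 6.47 and 6.65 at pink and 6.92, 6.77 and 6.64 at red ripe, and no step was called.

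Further genes called between later stages include some that peaked early and came down, some that rose after turning or pink, and some that dipped at pink. LOC101252202 gave 3.24 and 3.04 at breaker, 5.71 and 6.06 at turning, 7.01 and 7.26 at pink, and 4.50, 4.60 and 4.07 at red ripe. It rose by 1.25 from turning to pink (SE 0.22, adjusted p = 0.0245), a call lost in 8 of the alternative fits, and fell by 2.75 from pink to red ripe (SE 0.20, adjusted p = 4.5e-05). LOC101266195, which shares the smallest gap of 0.41 with LOC101256074, gave 6.21 and 6.06 at breaker, 8.61 on both turning arrays, 9.10 and 9.28 at pink, and 6.62, 6.73 and 6.98 at red ripe. It fell by 2.41 from pink to red ripe (SE 0.15, adjusted p = 2.3e-05), and its red ripe arrays remained 0.41 above breaker. LOC101267064 was highest at turning, with 7.13 and 7.02 at breaker, 9.60 and 9.69 at turning, 9.22 and 9.24 at pink, and 7.72, 7.62 and 7.56 at red ripe. Its signal fell by 2.01 from turning to red ripe (SE 0.12, adjusted p = 1.53e-05), the largest fall in that contrast.

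LOC101244918, with 3.03 and 2.98 at breaker, 4.02 and 4.72 at turning, 5.28 and 5.71 at pink, and 4.06, 3.94 and 3.58 at red ripe, fell by 1.64 from pink to red ripe (SE 0.24, adjusted p = 0.00185). LOC101258601 had 4.69 and 4.89 at breaker, 6.77 and 6.58 at turning, 5.39 and 5.72 at pink, and 5.50, 5.53 and 5.34 at red ripe. It peaked at turning and was level afterwards, with a fall of 1.12 from turning to pink (SE 0.17, adjusted p = 0.0144) that was not called with array weights (adjusted p = 0.126), with only these stages fitted (adjusted p = 0.266) or without pink 1 (-0.96). LOC101262421 dipped at pink, with 4.62 and 4.41 at breaker, 7.29 and 7.35 at turning, 5.88 and 6.51 at pink, and 6.89, 6.97 and 6.63 at red ripe. Its fall of 1.13 from turning to pink (SE 0.22, adjusted p = 0.0383) was lost in 11 of the 17 alternative fits, the replicate block included (adjusted p = 0.078).

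Rises after turning or pink were fewer. LOC101251813, which RefSeq holds as a miscellaneous RNA, gave 5.23 and 5.39 at breaker, 6.72 and 6.33 at turning, 9.25 and 8.81 at pink, and 7.78, 7.77 and 7.78 at red ripe. It rose by 2.50 from turning to pink (SE 0.19, adjusted p = 0.000573), fell by 1.25 from pink to red ripe (SE 0.17, adjusted p = 0.00143) and ended above turning, with a rise of 1.25 from turning to red ripe (SE 0.17, adjusted p = 0.00119). The latter was 0.73 after quantile normalization and 0.67 after cyclic loess and not called (adjusted p = 0.0304, under 2-fold, and 0.0542), and the rise to pink was not called when only these stages were fitted (adjusted p = 0.0645). LOC101248521, a long non-coding RNA, was near the array median at breaker with 1.53 and 1.64 and gave 2.67 and 2.46 at turning, 2.62 and 3.13 at pink, and 3.66, 3.87 and 3.84 at red ripe. It rose by 1.23 from turning to red ripe (SE 0.17, adjusted p = 0.00132). LOC101262976 dipped and then rose by 1.52 from pink to red ripe (SE 0.20, adjusted p = 0.000992), with 2.33 and 2.54 at breaker, 5.10 and 4.61 at turning, 3.79 and 4.17 at pink, and 5.69, 5.35 and 5.45 at red ripe. LOC101245519 and LOC101244562 rose by 1.14 and 1.08 in the same contrast (SE 0.17 and 0.20, adjusted p = 0.0022 and 0.00572). After quantile normalization only the rise of LOC101245519 was left in this contrast (9.89% of probe sets with 1 symbol rose), and after cyclic loess none (10.5% rose).

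In the deposited values many of the 74 genes with no called contrast formed a plateau. The 3 later stage means lay within 0.5 of each other for 36 of the 100 genes and spread over more than 1 for 29, with a median spread of 0.64. These spreads were not recomputed after other scalings. The median difference of the 100 genes from breaker at turning, pink and red ripe was 1.73, 1.7 and 0.78 after quantile normalization. It was 1.66, 1.67 and 0.74 after cyclic loess, and 1.05, 1.28 and 0.98 after median centring. LOC101248886 had the most level course, with stage means within 0.06 of each other and 6.78 and 6.83 at breaker against 7.28 to 7.66 later, followed by LOC101244814 with means within 0.07 and 4.74 and 4.79 at breaker against 5.53 to 5.88 later. A missed threshold does not show that stages were alike. In simulated data with the same number of arrays, 200 probe sets were changed and the spread was the same at every stage. A log2 change of 1.5 was recovered there for 63% of changed probe sets from turning to pink, 79% from turning to red ripe and 70% from pink to red ripe. In the data more probe sets changed, and arrays at turning and pink had lower weights. These rates therefore do not carry over to the data, and their differences are not read as differences between contrasts.

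Within groups by highest stage, the 56 genes that peaked at pink had a median log2 fold change of -0.65 from pink to red ripe (-2.81 to -0.08), and the 26 that peaked at turning had -0.42 from turning to pink (-1.12 to -0.08). The 18 that were highest at red ripe had a median of 0.48 from pink to red ripe (0.04 to 1.52). These signs follow from the grouping, and the sizes show that most moves among later stages were smaller than 2-fold. Called genes numbered 6 of 26, 13 of 56 and 7 of 18, with no share over the array counted beside them. The grouping limits which calls a gene can have, so that these counts are not compared between groups.

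By RefSeq annotation 92 of the 100 genes code for proteins (95.91% of the matched genes on the array), 5 are long non-coding RNAs (2.67%), and LOC101268049, LOC101254002 and LOC101251813 are a pseudogene, a transcribed pseudogene and a miscellaneous RNA. The 5 long non-coding RNAs are LOC101248021, LOC101252529, LOC101248521, LOC101246917 and LOC101246512, with gaps of 1.9, 0.99, 0.82, 0.48 and 0.42. LOC101252529 gave 4.09 and 4.07 at breaker, 5.08 and 5.52 at turning, 5.61 and 5.72 at pink, and 5.90, 5.90 and 5.76 at red ripe, so that every later array lay at least 0.99 above breaker without a called step. All 12 chromosomes held members, from 18 on chromosome 1 and 13 on chromosome 4 to 3 on chromosome 12, where 12.3%, 8.3% and 6.8% of all genes lie.

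Besides the proline-rich pair, 3 pairs of members lay within 9 annotated genes of each other. LOC101255849 and LOC101256441 on chromosome 11 had 2 genes between them. LOC101255849 gave 5.50 and 5.70 at breaker and 6.19 to 6.87 later, and LOC101256441 gave 4.11 and 4.31 at breaker and 4.78 to 5.84 later. Cel2 and LOC101244110 on chromosome 9 had 5 between, and LOC101260550 and LOC101258875 on chromosome 7 had 8. Every measured gene between these pairs had a gap below 0 except LOC101257207 at 0.05, which stayed between 1.20 and 1.71.

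Other probe sets of the same genes were passed over by the rule for their smaller gaps, so that their values are a description. Only 3 members had more than 1 probe set, LOC101268049, LOC101246717 and LOC101254002, with 6 further probe sets in all. All 6 had a mean above breaker at turning, pink and red ripe, and 5 of them a gap above 0. LOC101246717, chosen on a gap of 0.55, had 3 others with gaps of 0.44, 0.35 and 0.31. The exception was 1 of the other probe sets of LOC101254002, with a gap of -0.19 and a turning mean 0.02 above breaker against 1.36 and 1.48 at pink and red ripe.

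Other genes of the same families, as far as a symbol or synonym names them, mostly lay outside the list. Family genes with a locus symbol alone could not be counted inside or outside it, so that these counts do not describe whole families. Of 6 endoglucanases 1 (Cel2), of 4 polygalacturonases 1 (PG2), of 7 small GTPases 1 (ypt2) and of 2 genes of plastid division 1 (LOC101055525) were members, and none of 14 expansins, 11 xyloglucan enzymes, 6 beta-galactosidases and 3 pectin methylesterases. Median gaps of these families ran from 0.05 for plastid division and -0.10 for polygalacturonases to -1.93 for pectin methylesterases and -2.64 for beta-galactosidases, beside -0.49 over all genes. From turning to red ripe 2 endoglucanases, 1 polygalacturonase, 2 expansins, 4 xyloglucan enzymes, 4 beta-galactosidases and 2 small GTPases rose, where 22.4% of probe sets with 1 symbol did, and 1 pectin methylesterase fell (1.54%). EXP1, an expansin of ripening fruit, gave 4.30 and 5.13 at breaker, 1.12 to 1.74 at turning and pink and 4.89 to 5.05 at red ripe, a dip that the rule excludes.

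Of 6 ripening markers (PG2, Psy1, EXP1, ACS2, NAC-NOR and E8-6) PG2 was a member. ACS4, RIN and E8 were planned as markers and are not in this list under these symbols. Whether E8-6 stands for E8 was not tested. CER6, CD1, TAPG1 and JOINTLESS were planned for the lists of epidermis and abscission zone that follow, and are not in them. The summed linear signal of the 6, in which the highest signals weigh most, was 3067 and 3568 at breaker and 1987 and 2153 at turning. It was 4204 and 4210 at pink and 5126 to 5480 at red ripe. From turning to red ripe 5 of the 6 rose, where 22.4% of probe sets with 1 symbol did, and E8-6 fell (-1.4). From pink to red ripe 1 rose and E8-6 fell (-1.56). Markers of epidermis and cuticle (CHS1, CHS2, MYB12 and CD2) also came down at red ripe. All 4 fell from pink and 3 from turning to red ripe, where 1.57% and 1.54% of probe sets with 1 symbol did. Before red ripe they followed no common course. From turning to pink CHS1 and MYB12 rose (1.72 and 1.68), CD2 fell (-1.81) and CHS2 was not called (-0.14). CHS2 weighs most in their summed linear signal. The sum was 401 and 408 at breaker, 452 and 458 at turning, 328 and 348 at pink, and 67 to 84 once red ripe. The part of epidermal RNA in the falls of LOC101250534, HSP21 and other members was not tested. Of 4 abscission zone genes none was a member, TAPG2 stayed between 1.01 and 1.25 on all arrays, and the summed signal of 136 and 44 at breaker and 19 to 77 later followed Cel1, which also belongs to the endoglucanases.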

How the data were processed

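The deposited values are log2 signals, which the authors made in Affymetrix Expression Console by RMA (background correction, normalization across arrays, summary of probes). Transcriptome Analysis Console 2.0 is named in the submitters' notes. All 9 arrays and 67795 probe sets were used as deposited, without a filter on low signal. In the array annotation 23194 probe sets carry 1 gene symbol, 170 several and 44431 none, and only the first kind could give a member. RefSeq (SLM_r2.1) served for names, gene type and neighbours and matched 21159 of 21326 genes and all 100 members. No coordinates are given, because the array annotation names no assembly, and sequences were not used here.

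Stage means were estimated over all arrays in limma 3.58.1 (R 4.3.3), with 5 residual and 3.65 prior degrees of freedom. The fit was tested on simulated data with 200 changed probe sets. Genes named in the text were the 10 with the largest gap, up to 4 members of the cell wall list, up to 5 called rises and 5 falls per contrast, the 3 genes on either side of the limit, and Cel2, with additions stated where they occur. Gene lists were formed from symbols, since the annotation gives no descriptions, and seed genes could not be matched. The members and lists were chosen with earlier results of these data known. The alternatives were a replicate block, each array left out, 3 other scalings, the lowest 33.3% of signals left out, array weights, robust moderation with an intensity trend (statmod 1.5.0), a fit of only the stages compared, no fold threshold, the study's unadjusted threshold, the mean of a gene's probe sets and a difference of means in place of the gap.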

Additional observations from a re-analysis of the deposited data

How the results depend on the processing

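No contrast of a named gene changed its sign as a called result under any alternative: of the values recomputed for named genes 1242 kept their side of the threshold, 53 lost and 31 gained a call, and 18 of 30 calls held in all 17 alternative fits. Risen genes from turning to pink numbered 6, with 2 under array weights, 1 with only the stages compared in the fit, and 10 without a fold threshold or with the study's thresholds. Fallen genes in this contrast numbered 2, with 0 under array weights, 0 with only the stages compared and 4 after cyclic loess. From turning to red ripe 5 rose, with 8 after median centring and 11 without a fold threshold, and 10 fell, with 38 after cyclic loess, 39 after quantile normalization and 22 without a fold threshold. From pink to red ripe 3 rose, with 0 after cyclic loess, 1 after quantile normalization and 6 without a fold threshold, and 15 fell, with 39, 41 and 32 in the same order. Without a fold threshold or with an unadjusted p more genes pass by construction, and for the other settings the cause was not tested. From turning to red ripe 7521 of all probe sets rose after median centring, beside 6208 in the deposited values. Shares over the array were not counted for most settings, so that these counts are not read as a result about the 100 genes. Of the 100 genes 55 were also chosen after quantile normalization, 58 after cyclic loess and 36 by the difference of means. Leaving out each array in turn gave 4 to 8 and 1 to 2 genes risen and fallen from turning to pink, 4 to 6 and 9 to 12 from turning to red ripe, 2 to 4 and 13 to 19 from pink to red ripe, and 71 to 96 of the 100 genes chosen again, fewest without breaker 1 or breaker 2. Of the 2 falls from turning to pink 1 was left when any 1 of the red ripe arrays was taken out. Without pink 1 the log2 fold changes of LOC101262421 and LOC101258601 were -0.81 and -0.96, under 2-fold, so that neither of these falls was kept. With the replicate number as a block the fallen genes from turning to pink numbered 1. Same-numbered arrays deviated from their stage means with correlations of 0 to 0.07, so that the numbers were not taken as pairs. Array weights were lowest at turning (0.40) and pink (0.57) against 2.21 for breaker and 0.90 to 2.11 for red ripe, so that errors can be too small at turning and pink. Arrays carry no detection call, which limits changes from signals near 2.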
